A study of Homo sapiens with 6 samples.

Results

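The genes described here encode the isozymes of phosphofructokinase (PFKL, PFKM and PFKP), of the bifunctional PFKFB enzymes (PFKFB1, PFKFB2, PFKFB3 and PFKFB4) and of aldolase (ALDOA and ALDOC). They were chosen by symbol, and 9 of 9 were found among the 60675 genes counted in the RNA-seq experiment. The cells were PLC/PRF5, a human hepatocellular carcinoma (HCC) line grown in DMEM with fetal bovine serum. There were 3 control libraries and 3 libraries after knockdown of MTR4 (MTR4 KD), an RNA helicase of the nuclear exosome. For its RNA-seq the paper describes an shRNA that is induced by doxycycline (Doxy), with cells before and after induction. It also describes cells with a stable MTR4 shRNA or scramble shRNA, which it calls MTR4 KD and control. The sample labels name only control and MTR4 KD. No library of Doxy-treated cells with a scramble shRNA was analysed here. The paper reports that Doxy left the glycolytic mRNAs it measured unchanged in cells with an inducible scramble shRNA. The labels do not say whether replicates came from separate cultures, so p-values measure the spread between these libraries, which may be technical.

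Phosphofructokinase commits glucose to glycolysis by phosphorylating fructose 6-phosphate, and its subunits assemble into tetramers of a liver (PFKL), a muscle (PFKM) and a platelet (PFKP) type. The PFKFB enzymes make and break fructose 2,6-bisphosphate, a strong allosteric activator of phosphofructokinase, and differ in the balance of their kinase and phosphatase activities. Aldolase then splits fructose 1,6-bisphosphate into a pair of triose phosphates. ALDOA is the widely expressed form and ALDOC the brain form. Several of these genes are known targets of hypoxia-inducible factors, which bind the core sequences ACGTG and GCGTG.

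To show what lies directly upstream of some of these genes, the 250 bases before the transcription start are given for PFKL, PFKFB3, PFKFB4, ALDOA and ALDOC, from RefSeq on GRCh38.p14. These windows end just before the first base of the canonical transcript. That of PFKFB1, a gene near the limit of detection, held neither ACGTG nor GCGTG and is not shown. No such window was used for the other members, so PFKP is not shown. Windows before other annotated starts of PFKM, PFKP, PFKFB1, PFKFB3 and ALDOA were left out. Some of those of PFKM, PFKP, PFKFB3 and ALDOA held ACGTG or GCGTG as well. The windows are chr21:44299803-44300052 on the plus strand for PFKL, chr10:6202682-6202931 on the plus strand for PFKFB3, chr3:48556804-48557053 on the minus strand for PFKFB4, chr16:30065510-30065759 on the plus strand for ALDOA and chr17:28576896-28577145 on the minus strand for ALDOC. Each is written 5′ to 3′ along the gene. Capitals mark ACGTG or GCGTG on either strand, which includes CACGTG, a palindrome that holds ACGTG on both strands.
PFKL: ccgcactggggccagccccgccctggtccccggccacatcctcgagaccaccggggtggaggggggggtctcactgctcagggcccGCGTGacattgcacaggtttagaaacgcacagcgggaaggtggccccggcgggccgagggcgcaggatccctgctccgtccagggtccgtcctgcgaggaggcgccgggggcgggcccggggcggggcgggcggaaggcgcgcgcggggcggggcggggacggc
PFKFB3: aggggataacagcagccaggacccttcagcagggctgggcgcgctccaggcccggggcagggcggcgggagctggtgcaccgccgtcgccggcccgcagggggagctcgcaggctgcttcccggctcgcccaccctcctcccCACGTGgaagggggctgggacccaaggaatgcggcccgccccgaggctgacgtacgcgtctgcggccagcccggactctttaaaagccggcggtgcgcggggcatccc
PFKFB4: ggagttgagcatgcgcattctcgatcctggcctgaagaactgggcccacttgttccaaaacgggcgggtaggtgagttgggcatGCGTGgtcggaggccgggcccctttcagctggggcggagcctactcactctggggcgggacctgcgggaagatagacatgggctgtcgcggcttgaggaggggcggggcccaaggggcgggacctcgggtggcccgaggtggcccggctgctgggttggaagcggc
ALDOA: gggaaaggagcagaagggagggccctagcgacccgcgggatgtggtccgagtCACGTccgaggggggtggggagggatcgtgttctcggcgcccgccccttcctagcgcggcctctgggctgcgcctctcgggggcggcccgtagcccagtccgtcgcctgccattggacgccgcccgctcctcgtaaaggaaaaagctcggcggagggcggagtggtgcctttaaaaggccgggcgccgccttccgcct
ALDOC: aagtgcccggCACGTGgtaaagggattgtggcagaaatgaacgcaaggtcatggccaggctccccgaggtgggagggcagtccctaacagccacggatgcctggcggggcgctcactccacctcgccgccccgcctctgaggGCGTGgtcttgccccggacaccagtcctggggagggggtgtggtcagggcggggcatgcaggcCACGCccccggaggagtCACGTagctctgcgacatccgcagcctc
The ALDOC window held CACGTG 1 time, GCGTG 2 times and 1 further ACGTG. PFKFB3 held a single CACGTG, ALDOA a single ACGTG, and PFKFB4 and PFKL a single GCGTG each. Among 35116 RefSeq windows of 250 bases, 18.5% held ACGTG, 32.2% held GCGTG, 6.34% held CACGTG and 43.2% held either core. These matches describe letters in a window and do not show that a factor binds there. Whether the matches bear on the changes below was not tested.

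Gene counts summed to 60686786 to 72708682 reads in each library, and 18075 genes passed edgeR's filter on low counts. MTR4 (gene symbol MTREX) fell from 78.0 ± 8.24 to 45.8 ± 2.60 CPM (reads on a gene per 1e6 reads after TMM scaling, mean ± SD, n = 3 in each group), or to 58.8% of control (edgeR quasi-likelihood test with Benjamini-Hochberg adjustment over all tested genes, adjusted p = 0.00641). Non-unique alignments exceeded 30% of entries in MTR4 KD replicate 3 and control replicates 1 and 3, but not in the other 3 libraries. Replicates deviated together within these library sets, so changes are also given within each set, as a difference of mean log2(CPM + 0.5) with no test. Each such difference rests on a single library in 1 group. This is MTR4 KD replicate 3 in the set with more non-unique alignments and control replicate 2 in the set with fewer. The 14 hepatocyte and hepatoma markers summed to between 34544 and 36861 CPM in control and between 34860 and 37415 CPM in MTR4 KD libraries, whereas no leukocyte, endothelial or fibroblast marker exceeded 6.05 CPM in any library. Single hepatocyte markers did change, with 3 of 14 raised and 1 lowered (edgeR, adjusted p under 0.05), beside 1.48% and 2.12% of all tested genes. Log2 fold changes over the 14 ran from -0.26 to 0.88, and the part of these markers in the isozyme changes was not tested. In bulk RNA, fewer cells of a type and less RNA per cell cannot be told apart.

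Of the 9 isozyme genes, 5 fell after MTR4 knockdown and 0 rose at an adjusted p under 0.05 (edgeR's quasi-likelihood test), beside 2.12% of all tested genes that fell and 1.48% that rose (3.6% in either direction). The 5 were PFKP, PFKFB3, PFKFB4, ALDOA and ALDOC. At an unadjusted p under 0.05, 6 fell and 1 rose, where 9.84% of all tested genes fell and 8.93% rose. DESeq2 also called 5 that fell and 0 that rose, beside 4.26% and 3.28% of all tested genes, and so did limma-voom, beside 2% and 1.38%. PFKP and ALDOC fell by over 2-fold, as did 0.509% of all tested genes. In 7 of 9 genes every MTR4 KD library lay below every control library, which held for 12.6% of all tested genes (24.7% did not overlap in either direction). The median log2 fold change of the 9 genes was -0.36, beside 0.01 over all tested genes. The fit with the library set as a covariate called 6 that fell and 1 that rose, where 10.8% of all tested genes fell and 9.43% rose (20.2% in either direction). Calls for PFKFB3 and PFKFB4 were lost without control replicate 1, control replicate 3, MTR4 KD replicate 1 or MTR4 KD replicate 2. Each of these fits left 3 of the 9 genes lowered, beside 85 to 118 of all tested genes.

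**Figure D1:**
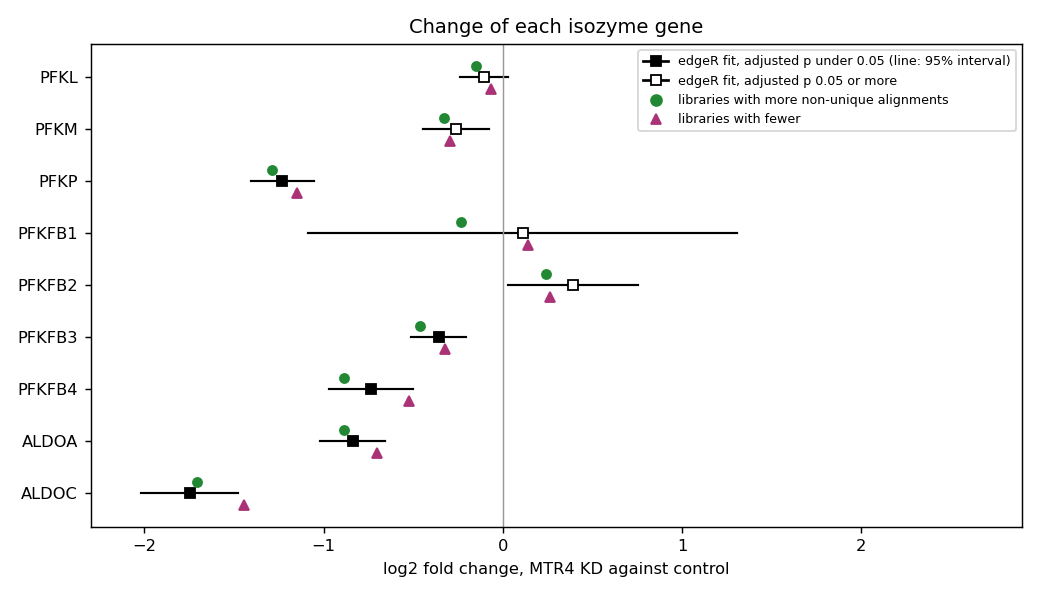
log2 fold change of each isozyme gene, MTR4 KD against control, from the edgeR fit (squares, filled where the adjusted p is under 0.05, with 95% intervals), and the difference within the library set with more (circles) and fewer (triangles) non-unique alignments. PFKP (-1.23) and ALDOC (-1.75) lie farthest below 0, PFKL (-0.11) lies close to it, and the interval of PFKFB1 runs from -1.09 to 1.31.

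Among the phosphofructokinase genes, PFKP carried the largest change. PFKP (chr10:3067548-3136805, plus strand, GRCh38) encodes the platelet-type subunit. Its level was 148.3, 151.2 and 171.6 CPM in the control libraries (replicates 1 to 3), and 68.0, 67.8 and 65.0 CPM in the MTR4 KD replicates. The groups lay far apart, and the MTR4 KD replicates differed from each other by little (157.0 ± 12.7 against 66.9 ± 1.64 CPM, n = 3 each). The log2 fold change was -1.23 (SE 0.0744, 95% interval -1.40 to -1.06, adjusted p = 0.000544 by edgeR), or 42.6% of control. It was -1.29 and -1.15 within the library sets with more and fewer non-unique alignments.

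PFKL (chr21:44300053-44327373, plus strand), the liver-type subunit, was the most abundant phosphofructokinase gene and differed little between the groups. Its level was 335.1, 339.0 and 361.3 CPM in the control replicates and 319.1, 329.2 and 314.2 CPM in the MTR4 KD replicates. The groups did not overlap, but the log2 fold change of -0.11 (SE 0.0576, 95% interval -0.24 to 0.03) did not pass the test (adjusted p = 0.380 by edgeR). PFKM (chr12:48105353-48146404, plus strand), the muscle-type subunit, measured 91.7, 104.5 and 99.3 CPM in control and 86.3, 84.1 and 76.0 CPM in MTR4 KD replicates. These groups did not overlap either. The log2 fold change of PFKM was -0.26 (SE 0.0776, 95% interval -0.44 to -0.08) with an adjusted p of 0.130 by edgeR. With the library set as a covariate it was -0.31 with an adjusted p of 0.000340, so that the call for PFKM rests on the treatment of the library sets. Of the merged exon bases of PFKM, 7.12% also lie in exons of SENP1 on the opposite strand, and whether reads were counted by strand was not given in the sources used here. PFKFB2 likewise shares 3.10% with YOD1 on the opposite strand, which had 801 to 1124 reads per library. PFKFB4 shares 4.88% with UCN2, which had at most 8 reads. ALDOA shares 13.6% and PFKP 1.54% with annotated genes that had no reads.

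Of the 4 PFKFB genes, PFKFB3 and PFKFB4 fell, and PFKFB1 and PFKFB2 did not pass the test. PFKFB3 (chr10:6144921-6326637, plus strand), whose product is known for a kinase activity far above its phosphatase activity, was the dominant PFKFB gene. It measured 443.6, 451.0 and 444.0 CPM in the control replicates and 364.7, 357.5 and 322.4 CPM in the MTR4 KD replicates. All MTR4 KD values lay below the narrow range of the control values. PFKFB3 had a log2 fold change of -0.36 (SE 0.0648, 95% interval -0.51 to -0.21, adjusted p = 0.0318 by edgeR), or 78.0% of control. Within the library sets it was -0.46 and -0.32. Relative to ACTB, itself at a log2 fold change of -0.19 (adjusted p = 0.192 by edgeR), PFKFB3 stood at -0.17 and did not pass the test (adjusted p = 0.293 by edgeR).

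PFKFB4 (chr3:48517684-48563136, minus strand), a hypoxia-responsive isozyme first described in testis, was present at a much lower level. It measured 29.3, 24.0 and 26.5 CPM in control and 17.1, 16.0 and 14.8 CPM in MTR4 KD replicates. The groups did not overlap. The log2 fold change was -0.73 (SE 0.10, 95% interval -0.97 to -0.50, adjusted p = 0.0113 by edgeR), or 60.2% of control, and it was -0.89 and -0.52 within the library sets with more and fewer non-unique alignments.

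PFKFB2 (chr1:207034416-207081027, plus strand), the heart-type isozyme, had higher values after MTR4 knockdown but did not pass the test. It measured 22.1, 28.3 and 21.2 CPM in control and 33.0, 35.3 and 25.6 CPM in MTR4 KD replicates. Control replicate 2 lay above MTR4 KD replicate 3, so the groups overlapped. PFKFB2 had a log2 fold change of 0.39 (SE 0.154, 95% interval 0.03 to 0.75, adjusted p = 0.235 by edgeR). With the library set as a covariate it was 0.26 with an adjusted p of 0.00730, and the differences within the sets were 0.24 and 0.26.

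PFKFB1 (chrX:54932961-54998789, minus strand), the liver and muscle isozyme, was close to the limit of detection. It had 15, 15 and 10 reads in the control replicates and 22, 14 and 6 reads in the MTR4 KD replicates. The group sums were 40 reads (exact Poisson 95% interval 28.6 to 54.5) and 42 reads (30.3 to 56.8), intervals that cover counting error only. A change in PFKFB1 was not detectable at this depth (log2 fold change 0.11, 95% interval -1.09 to 1.31, adjusted p = 0.929 by edgeR).

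Both aldolase genes among the 9 fell. ALDOA (chr16:30064279-30070420, plus strand) was the most abundant of all 9 genes. It measured 1224.7, 1102.4 and 1322.4 CPM in control and 675.6, 678.3 and 689.2 CPM in MTR4 KD replicates. Every MTR4 KD value lay far below the lowest control value. The log2 fold change was -0.84 (SE 0.0769, 95% interval -1.02 to -0.66, adjusted p = 0.00233 by edgeR), or 56.0% of control, with -0.88 and -0.70 within the library sets. The processed pseudogenes ALDOAP1 and ALDOAP2 were listed at 0 reads in every library. Non-unique alignments were not assigned to any gene, so this does not show whether reads of ALDOA also matched the pseudogenes.

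ALDOC (chr17:28573120-28576895, minus strand) had the largest fold change of the 9 genes, at a low level. It measured 10.4, 9.24 and 10.8 CPM in control and 3.34, 2.83 and 2.9 CPM in MTR4 KD replicates. The log2 fold change was -1.75 (SE 0.115, 95% interval -2.02 to -1.48, adjusted p = 0.000684 by edgeR), or 29.8% of control. The differences within the library sets were -1.71 and -1.45 with 0.5 CPM added to each value, and -1.87 and -1.58 with 0.01 CPM added, a setting chosen after the first values were seen. Of the merged exon bases of ALDOC, 11.3% also lie in another annotated gene, which had no reads, and the longest run of bases that ALDOC shares exactly with ALDOA is 44.

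To compare isozymes with each other, CPM was divided by the length of each gene's merged exons. On this scale control cells ranked PFKL (38.7 ± 1.58 CPM per kilobase, n = 3), PFKP (20.2 ± 1.63) and PFKM (13.6 ± 0.887). After MTR4 knockdown the order was PFKL (35.9 ± 0.858), PFKM (11.3 ± 0.745) and PFKP (8.61 ± 0.211). PFKP was thus above PFKM in 3 of 3 control libraries and in 0 of 3 MTR4 KD libraries. With the length of the canonical transcript it was above PFKM in 1 of 3 MTR4 KD libraries, with a ratio of group means of 0.959, so that these neighbours in the order are not separated under that length.

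The share of PFKP in the phosphofructokinase reads per kilobase went from 27.9 ± 0.976% to 15.4 ± 0.146%, and that of PFKL from 53.4 ± 0.712% to 64.3 ± 0.878% (n = 3 each, two-sided exact permutation p = 0.1 for each, the smallest that 3 against 3 can give). No share could therefore reach 0.05. PFKM held 18.8 ± 1.14% and 20.3 ± 0.853% (n = 3 each, exact permutation p = 0.2). The size of the shares depends on the length used. With the longest transcript, control and MTR4 KD shares were 36.1% and 21.2% for PFKP and 43.2% and 55.2% for PFKL. Those of PFKM were then 20.7% and 23.7% (exact permutation p = 0.1). The family total went from 72.5 ± 3.53 to 55.9 ± 1.63 CPM per kilobase, which is 77.1% of control.

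PFKFB3 made up 91.5 ± 0.344% of the PFKFB reads per kilobase in control and 90.8 ± 0.494% in MTR4 KD libraries (n = 3 each, exact permutation p = 0.2). The share of PFKFB4 went from 5.46 ± 0.573% to 4.17 ± 0.110% and that of PFKFB2 from 2.94 ± 0.450% to 4.88 ± 0.499% (n = 3 each, exact permutation p = 0.1 for each). PFKFB4 exceeded PFKFB2 in 3 of 3 control and 0 of 3 MTR4 KD libraries by merged exons. With the longest or the canonical transcript it exceeded PFKFB2 in 2 of 3 MTR4 KD libraries, so the order of these genes after knockdown depends on the length used. The family total stood at 78.7% of control.

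Of the reads per kilobase on ALDOA and ALDOC together, ALDOC made up 1.21 ± 0.0199% in control and 0.647 ± 0.063% in MTR4 KD libraries (n = 3 each, exact permutation p = 0.1). This share covers these members only, not aldolase as a whole. The sum of ALDOA and ALDOC stood at 55.7% of control.

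Ratios of isozymes within a library do not depend on how libraries are scaled. The log2 ratio of PFKP to PFKL was -1.18, -1.16 and -1.07 in control replicates and -2.23, -2.28 and -2.27 in MTR4 KD replicates, a difference of -1.12. Within the library sets with more and fewer non-unique alignments it was -1.15 and -1.09. The ratio of ALDOC to ALDOA differed by -0.91, that of PFKFB4 to PFKFB3 by -0.37, that of PFKFB2 to PFKFB3 by 0.75 and that of PFKM to PFKL by -0.16. In the same order, the differences within the sets with more and fewer non-unique alignments were -0.98 and -0.88, -0.45 and -0.21, 0.71 and 0.59, and -0.18 and -0.23. That of PFKFB4 to PFKFB3 was thus over 2 times as large in one set as in the other, and without control replicate 2 that of PFKM to PFKL was -0.10. In each of these 5 ratios the groups did not overlap (n = 3 each, two-sided exact permutation p = 0.1 for each and 0.1 after Benjamini-Hochberg adjustment over the 5). For PFKM to PFKL they nearly touched, at -1.87 in control replicate 1 and -1.89 in MTR4 KD replicate 1. Of single genes, 24.7% of all tested did not overlap in either direction. How often ratios of other gene pairs separate was not computed.

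The other genes of glycolysis gave the setting of these changes. Of 25 listed glucose transporters and glycolytic enzymes, 19 were tested, 8 fell and 0 rose (edgeR, adjusted p under 0.05), beside 2.12% and 1.48% of all tested genes. At an unadjusted p under 0.05, 13 fell and 1 rose (9.84% and 8.93% of all tested genes), and DESeq2 called 11 that fell and 0 that rose (4.26% and 3.28%). Their median log2 fold change was -0.36. The largest changes were in ENO2, the neuronal enolase (-1.32, adjusted p = 0.00122 by edgeR), HK2, an inducible hexokinase (-1.01, adjusted p = 0.0112 by edgeR), and SLC2A3, the glucose transporter GLUT3 (-0.93, adjusted p = 0.00804 by edgeR). PFKP and ALDOC thus had log2 fold changes in the range of ENO2 and HK2 or beyond it.

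**Figure D2:**
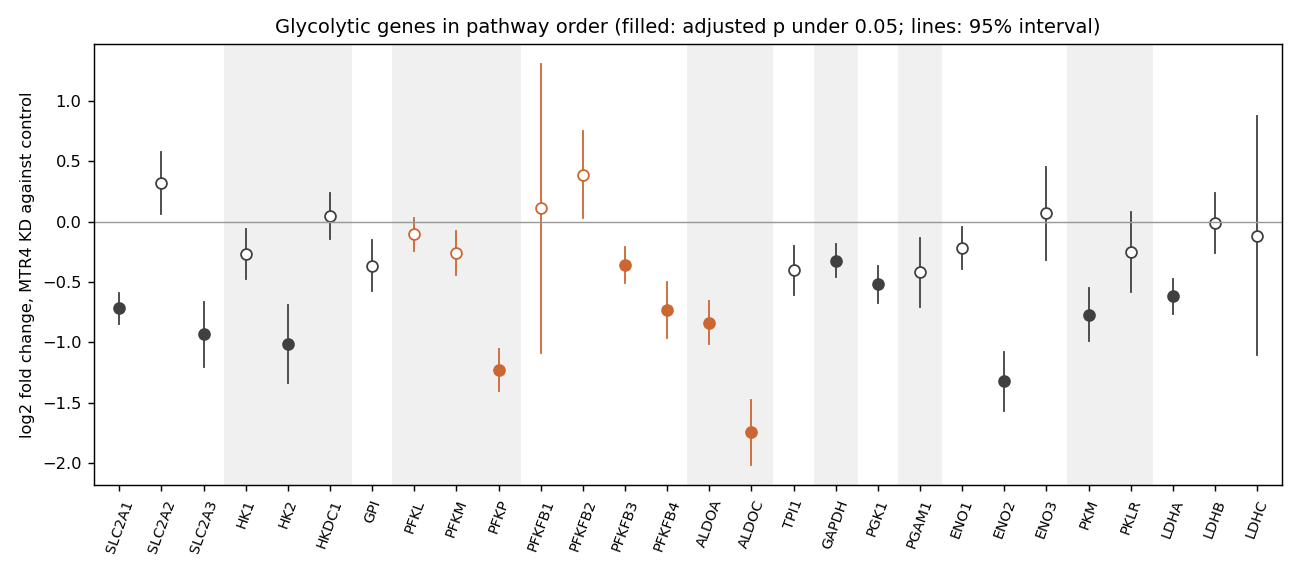
log2 fold change, MTR4 KD against control, of the tested glycolytic genes in pathway order, with the isozyme genes among them. Changes below 0 occur from the glucose transporters (SLC2A3, -0.93) through PFKP (-1.23) and ALDOC (-1.75) to ENO2 (-1.32). SLC2A2 (0.32), HKDC1 (0.05), PFKFB1 (0.11), PFKFB2 (0.39) and ENO3 (0.07) lie above 0, and none of these passed the edgeR test.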

How the data were processed

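RNA-seq was done on 6 PLC/PRF5 libraries. Per the labels and the submitters' processing notes, reads were aligned to GRCh38 with HISAT2 2.1.0 and counted with HTSeq. Its version and strand setting were not given in the sources used here. The authors deposited raw counts per Ensembl gene, without normalization. Entries of reads not assigned to a gene (37.8% to 49.3% of each library) stayed out of library sizes and tests.

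The members and gene lists were chosen with earlier results of these data known. The named genes are the 9 members, MTR4, ACTB, FBP1, FBP2, TIGAR, up to 3 changed genes per direction of each further list, and the 3 protein-coding genes (mean of at least 100 counts) nearest to the leading member of each family. Some genes that this rule covers are not reported here.

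Counts were fitted in R 4.3.3 with edgeR 4.0.16 (filterByExpr with a minimum of 10 counts, TMM, quasi-likelihood test, condition as the only term, Benjamini-Hochberg adjustment over 18075 genes), and with DESeq2 1.42.0 and limma 3.58.1 (voom) as alternatives. The procedure was also run on simulated counts, with an outcome not given here. These were drawn without library sets, so that run does not address their effect on the fit. CPM used TMM-scaled library sizes. Symbols and exon lengths were taken from GENCODE, in its version lifted to GRCh37 (56959 of 60675 counted genes found), and coordinates and promoter windows from RefSeq on GRCh38.p14. Lengths thus approximate the gene models that were counted.

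Differences within library sets and the distances between gene patterns used log2(CPM + 0.5). A pseudocount of 0.01 was added as an alternative after the values with 0.5 had been seen, since 0.5 understates the change of low genes. Both are given for some genes, among them PFKFB1, PFKFB4 and ALDOC, and for the nearest patterns. The canonical transcript length and the exons not shared with other genes were also added after the data were seen. Further alternatives were other scalings, filters, tests, the replicate number as a block, the library set as a covariate and each library left out in turn.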

Additional observations from a re-analysis of the deposited data

How the results depend on the processing

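PFKP, ALDOA and ALDOC kept their direction and call in 15 of 15 other fits (log2 fold changes of -1.27 to -1.04, -0.91 to -0.64 and -1.82 to -1.55). Relative to ACTB, a scaling that moved the median of all genes to 0.19, PFKL turned to 0.086 and PFKFB3 lost its call at -0.17. In that fit 5 rather than 8 other glycolytic genes fell, beside 169 of 18075 tested genes that fell and 616 that rose. DESeq2 called 1363 genes in place of 650, and 227 rather than 150 with a fold over 2. With the library set as a covariate these were 3649 and 347. PFKM (-0.31) and PFKFB2 (0.26, the 1 member that rose) then passed the test, and PFKFB1 (-0.18) and TIGAR (-0.062) turned sign. Of the other glycolytic genes 13 fell and 1 rose in this fit, beside 1944 and 1705 of all tested genes. PFKFB1 was at -0.050 by limma-voom and was not tested under the filter of 1 CPM.

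In the library set with more non-unique alignments alone, log2 differences were -0.23 for PFKFB1, -0.46 for PFKFB3 and -0.89 for PFKFB4, and the PFKFB1 share differed by -0.041 percentage points. In the set with fewer, they were -0.52 for PFKFB4, -0.70 for ALDOA and -1.45 for ALDOC. A pseudocount of 0.01 CPM in place of 0.5, chosen after the data were seen, gave -0.97, -0.46, -0.91 and -1.87 for PFKFB1, PFKFB3, PFKFB4 and ALDOC in the former set, and 0.39, -0.53, -0.70 and -1.58 for PFKFB1, PFKFB4, ALDOA and ALDOC in the latter. The PFKFB1 values rest on 6 to 22 reads per library.

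Leaving out each library in turn gave 137 to 803 changed genes, 73 to 180 with a fold over 2, 3 to 5 members lowered and 3 to 10 other glycolytic genes lowered. Over all tested genes 85 to 503 fell in these fits. PFKFB3 ranged from -0.39 to -0.30 and PFKFB4 from -0.81 to -0.66. PFKFB1 ranged from -0.41 to 0.46, its share from -0.0049 to 0.082 percentage points, and TIGAR from -0.023 to 0.15. The cause of these changes was not tested.

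Deviations of same-numbered control and MTR4 KD libraries correlated at -0.41, 0.50 and 0.53 (replicates 1 to 3). Same-numbered libraries share a library set for replicates 2 and 3 but not for replicate 1. Differently numbered pairs from the same set reached 0.54 and 0.51, so pairing by number cannot be told apart from the library set. With the replicate block 857 genes were called (515 fell, 342 rose). Of the other glycolytic genes 10 fell and 1 rose, and no call among the members changed.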

Other observations

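The enzymes that oppose phosphofructokinase and PFKFB gave few reads or little change. TIGAR, a fructose 2,6-bisphosphatase, had 28.2 ± 2.54 CPM in control and 28.9 ± 3.98 CPM in MTR4 KD libraries (n = 3 each, log2 fold change 0.04, 95% interval -0.24 to 0.32, adjusted p = 0.898 by edgeR). The fructose 1,6-bisphosphatase genes were below the expression filter, with 5 reads in each group for FBP1 and with 21 reads in control and 12 in MTR4 KD libraries for FBP2. PFKP-DT, the divergent transcript beside PFKP, had 8, 17 and 7 reads in control and 1, 10 and 3 reads in MTR4 KD replicates and was below the filter as well. Of 15 tested kinase and ubiquitin ligase genes known to act on PFKFB or phosphofructokinase proteins, edgeR called 0 and limma-voom 0 while DESeq2 called 1 that rose (3.28% of all tested genes). At an unadjusted p under 0.05 by edgeR 3 rose and 1 fell (8.93% and 9.84% of all tested genes), and with the library set as a covariate 2 rose and 1 fell (9.43% and 10.8%).

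Among 11668 protein-coding genes, the pattern over the 6 libraries nearest to that of PFKP was CYP24A1 (Euclidean distance 0.178 on the log2 scale), then TESC (0.184) and CGA (0.222). PDK1 was nearest to PFKFB4 (0.0976), before CFAP300 (0.177), and CXCL5 (0.219), BHLHE40 (0.227) and HAL (0.286) were nearest to ALDOC. With a pseudocount of 0.01 CPM, chosen after these values were seen, CYP24A1, TESC and PDK1 kept their places. GPRC5A took the place of CGA, EBI3 and SPRY2 followed PDK1, and for ALDOC a gene not named here came first, HAL (0.259) the next and CXCL5 (0.281) the last of the 3, without BHLHE40. These distances describe the same 6 libraries that gave the changes.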
